A study of Rattus norvegicus with 16 samples.

Results

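The 38 collagen genes outside type IV were followed in RNA of isolated rat glomeruli, the filtering units of the kidney. They were all rows of the deposited table of 36351 genes whose symbol is a collagen chain symbol not beginning with Col4a. The table's 16 libraries came from 4 groups of 4 rats, sampled on day 11. Sham rats were healthy, sham-treated controls that received vehicle by mouth daily. PAN rats were injected once, by tail vein on day 0, with 50 mg/kg of puromycin aminonucleoside, which injures podocytes and causes nephrotic syndrome, and then had the same daily vehicle. PAN+MP rats received the toxin and then methylprednisolone, a glucocorticoid, at 15 mg/kg daily by intraperitoneal injection. PAN+Pio rats received the toxin and then pioglitazone, a drug that activates PPAR gamma, at 10 mg/kg daily by mouth. The sources used here give neither strain nor age. The study asked which disease-induced changes each drug lessens, with attention to the extracellular matrix.

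Collagens are secreted or membrane proteins whose chains wind into a rod-like helix. Fibrillar collagens (I, II, III, V, XI, XXIV and XXVII) build the banded fibrils of connective tissue, with collagen V and XI setting fibril diameter. FACITs, the fibril-associated collagens with interrupted helices, sit on the fibril surface. Collagen VIII and X form hexagonal networks, collagen VI forms beaded microfilaments, and collagen VII anchors epithelia. Collagens XIII, XVII, XXIII and XXV span the cell membrane, and collagens XV and XVIII are multiplexins of basement membrane zones that release antiangiogenic fragments. In healthy glomeruli the main collagen is type IV of the basement membrane, and fibrillar collagens are known from scarred glomeruli.

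Total counts were 22802109 to 25689158 reads in the sham libraries, 25598960 to 29116478 in PAN, 27144706 to 32571877 in PAN+MP and 24138545 to 26682386 in PAN+Pio. Libraries are numbered by the order of their columns, which is a name only. The summed level of 8 podocyte markers was 19982 to 32729 CPM in sham and 18194 to 27756 in PAN, in CPM, read counts divided by the TMM-scaled depth of each library. The summed level of 12 proximal tubule markers, a sign of tubule carried over with the glomeruli, spanned 3676 to 7978 CPM in sham and 2388 to 11059.8 in PAN. It was lowest in PAN library 2 and highest in PAN library 3. PAN library 2 also had the highest summed level of mesangial markers. In bulk samples, fewer cells of a type and less RNA per cell cannot be told apart.

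A member was taken as detected at 10 or more raw counts in at least 4 of the 16 libraries, and 31 of the 38 were. Detection covered 10 of 11 fibrillar genes, 8 of 9 FACIT genes, 2 of 3 network genes, 5 of 6 collagen VI genes and 3 of 4 transmembrane genes. Col7a1, Col18a1 and Col26a1 were also detected. The 7 below the limit were Col1a2, Col9a3, Col10a1, Col6a4, Col23a1, Col15a1 and Col28a1. Of the 31, 30 passed the filter on low counts and were tested, and Col25a1, with 2 to 13 counts per library, was not. Just inside the detection limit, Col25a1 reached 10 counts in 4 libraries and Col6a5 in 5. Just outside it, Col10a1 and Col6a4 did so in 1.

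**Figure D1:**
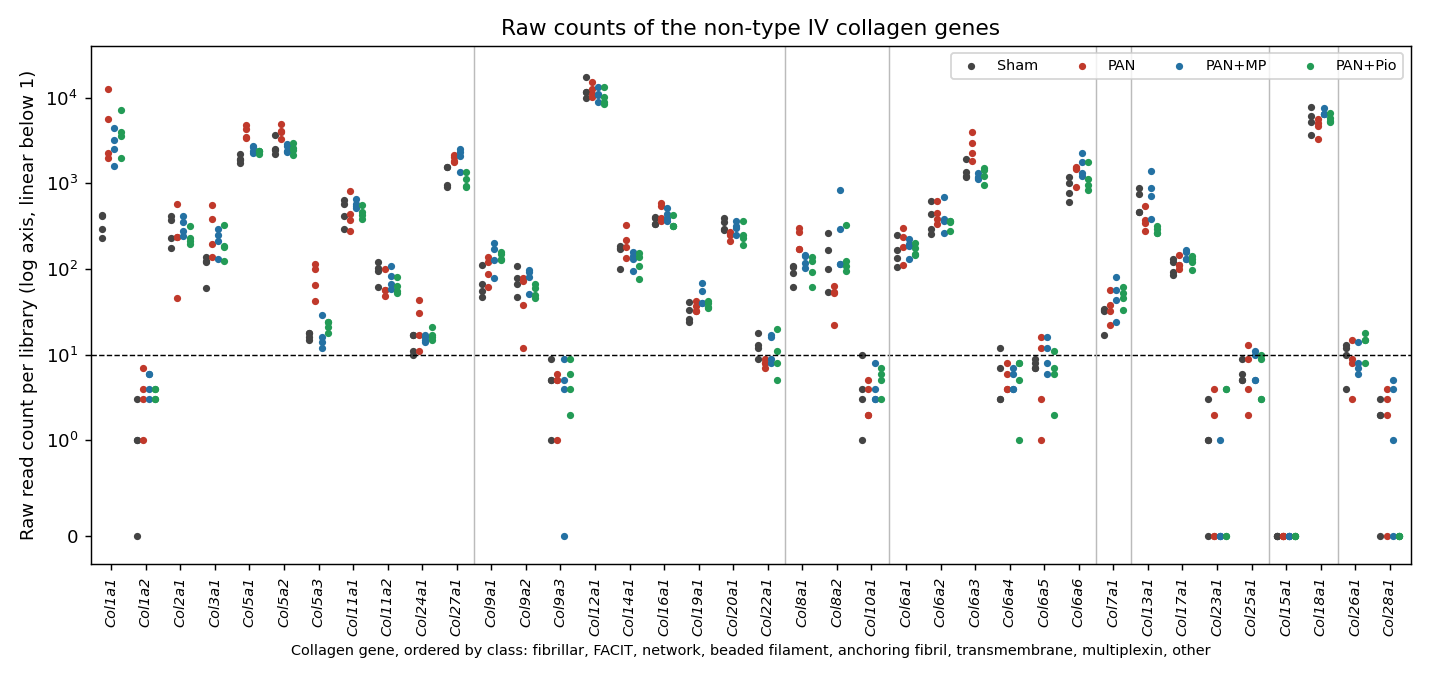
Raw read counts (vertical, log axis that is linear below 1) of the 38 collagen genes (horizontal, by class) in each of the 16 libraries, coloured by group, with a dashed line at 10 counts. Col12a1 and Col18a1 do not fall below 3257 reads in any library, whereas Col1a2 does not exceed 7 and Col15a1 is at 0.

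The partner chains of 2 detected collagens had almost no reads. Col1a2 encodes the second chain of collagen I and is usually made together with Col1a1. It had 1, 1, 3 and 0 reads in the sham libraries and 3, 7, 4 and 1 in PAN. Col1a1 had 421, 231, 295 and 419 reads in the same sham libraries and 5664, 2245, 1957 and 12601 in PAN. Col9a3, a chain of collagen IX, had 0 to 9 reads beside 47 to 203 for Col9a1 and 12 to 107 for Col9a2. Col15a1, a multiplexin, had 0 reads in all 16 libraries, and a count of 0 allows a level of up to 0.0932 to 0.133 CPM, for counting error only. Whether the gene models used for counting cover the transcripts of these genes was not tested.

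Between PAN and sham, 9 of the 30 tested collagen genes passed edgeR's quasi-likelihood test at an adjusted p under 0.05, 7 higher and 2 lower. Over all 17061 tested genes 18.9% passed, 10.4% higher and 8.52% lower, beside 30% of the collagens. The collagen count was 6 without Sham library 1, without PAN library 1 and with PAN and sham fitted alone. The libraries of both groups did not overlap for 4 collagens higher and 2 lower, 13.3% and 6.67% of the 30, beside 11.2% and 9.32% of all tested genes. The median log2 fold change was 0.14 for the collagens and 0.01 for all tested genes. The genes that rose were 5 fibrillar chains (Col1a1, Col3a1, Col5a1, Col5a2 and Col5a3), Col6a3 of the beaded filaments and Col8a1 of the networks. Col20a1, a FACIT, and Col13a1, a transmembrane collagen, fell. Under the drugs, 5 of the 7 risen genes fell against PAN with methylprednisolone and the same 5 with pioglitazone. The PAN libraries enter all 3 comparisons, so their directions are not independent.

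The 5 genes that rose in PAN and fell with both drugs were Col5a1, Col5a2, Col5a3, Col6a3 and Col8a1. Their promoters are printed because these members shared these calls, which all use the same PAN libraries. Each is the RefSeq window of build GRCr8 from 250 bases before to 50 after the gene's start, read 5′ to 3′ on the strand of the gene. That build is not the one the authors counted on, so members were matched by symbol alone. Of the 38 members, 29 matched that table by symbol and 27 had a single entry. Capitals mark the letters of 5 short motifs on either strand, namely GGGCGG (the GC box), CAGAC (the SMAD element), CCAAT (the CCAAT box), AGAACA (core letters of glucocorticoid receptor elements) and AGGTCA (core letters of elements for nuclear receptors such as PPAR). No marked base belonged to 2 different motifs.
Col5a1, chr3:31606630-31606929, plus strand: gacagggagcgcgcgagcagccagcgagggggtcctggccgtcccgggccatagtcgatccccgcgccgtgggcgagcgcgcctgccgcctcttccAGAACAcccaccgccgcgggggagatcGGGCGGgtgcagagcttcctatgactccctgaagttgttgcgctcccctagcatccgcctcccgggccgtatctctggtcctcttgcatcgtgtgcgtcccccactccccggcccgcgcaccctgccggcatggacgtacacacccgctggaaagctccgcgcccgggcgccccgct
Col5a2, chr9:55090102-55090401, minus strand: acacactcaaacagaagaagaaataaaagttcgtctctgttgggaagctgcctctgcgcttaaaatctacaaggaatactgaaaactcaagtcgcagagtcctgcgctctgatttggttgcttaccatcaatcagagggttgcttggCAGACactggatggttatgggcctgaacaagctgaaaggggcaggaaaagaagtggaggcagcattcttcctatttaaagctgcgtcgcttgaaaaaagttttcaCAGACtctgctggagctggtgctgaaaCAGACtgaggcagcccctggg
Col5a3, chr8:27625899-27626198, minus strand: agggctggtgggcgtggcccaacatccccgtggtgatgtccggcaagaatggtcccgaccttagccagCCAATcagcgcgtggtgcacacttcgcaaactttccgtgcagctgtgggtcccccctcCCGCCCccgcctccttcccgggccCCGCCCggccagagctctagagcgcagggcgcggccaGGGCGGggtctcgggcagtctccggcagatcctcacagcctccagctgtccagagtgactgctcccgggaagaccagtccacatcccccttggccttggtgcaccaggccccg
Col6a3, chr9:98886909-98887208, minus strand: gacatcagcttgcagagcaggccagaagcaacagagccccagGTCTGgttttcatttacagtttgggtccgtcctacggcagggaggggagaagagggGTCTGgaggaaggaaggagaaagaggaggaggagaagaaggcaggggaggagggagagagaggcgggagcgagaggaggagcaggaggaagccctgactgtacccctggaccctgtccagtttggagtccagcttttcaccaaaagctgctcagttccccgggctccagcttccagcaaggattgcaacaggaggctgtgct
Col8a1, chr11:56246532-56246831, plus strand: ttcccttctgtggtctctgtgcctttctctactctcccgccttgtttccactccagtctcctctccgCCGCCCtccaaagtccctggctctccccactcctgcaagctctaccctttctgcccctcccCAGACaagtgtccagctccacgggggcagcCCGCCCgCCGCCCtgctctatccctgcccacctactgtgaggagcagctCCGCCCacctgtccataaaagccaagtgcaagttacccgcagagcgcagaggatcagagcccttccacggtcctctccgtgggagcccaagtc

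None of the 5 motifs was in all 5 windows, and AGGTCA was in none of them. GC boxes were in the windows of Col5a1, Col5a3 and Col8a1, with 1, 3 and 4 matches. CAGAC was in those of Col5a2, Col6a3 and Col8a1, with 3, 2 and 1 matches. Of the 5, only the Col5a1 window held AGAACA, at 154 bases before the start, and only the Col5a3 window held CCAAT, at 182 bases before it. Of the 27 collagen members with a single entry, 48.1% held GGGCGG, 40.7% CAGAC, 29.6% CCAAT, 18.5% AGAACA and 3.7% AGGTCA. Of all 33469 promoters in the table, 33.1% held GGGCGG, 50.1% CAGAC, 37.5% CCAAT, 20.7% AGAACA and 16.2% AGGTCA. Such matches are frequent and describe the letters alone.

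Collagen V regulates the start and width of fibrils, and all 3 of its chains rose in PAN. Col5a1, the chain present in most collagen V molecules, stood at 75.8, 85.1, 82.6 and 72.2 CPM in the sham libraries and at 138, 177, 150.0 and 127 CPM in PAN. It stood at 82.6, 85.6, 84.6 and 74.6 CPM in PAN+MP and at 99.0, 83.2, 97.9 and 89.0 CPM in PAN+Pio. The lowest PAN library lay above every library of the other groups. Col5a1 rose in PAN by 0.91 ± 0.10 on the log2 scale (SE, n = 4), and passed edgeR's test (adjusted p 2.30e-05). It fell by 0.86 ± 0.10 with methylprednisolone (adjusted p 3.00e-05) and by 0.68 ± 0.10 with pioglitazone (adjusted p 0.00191). These calls held without each library in turn and under each other setting tried.

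Col5a2, the usual partner of Col5a1 in the collagen V molecule, stood at 97.4, 107, 136 and 97.6 CPM in sham and at 130.3, 184, 142 and 150.2 CPM in PAN. Sham library 3 overlapped the PAN range. With methylprednisolone it stood at 86.1, 83.5, 72.7 and 90.0 CPM and with pioglitazone at 108, 82.6, 119.7 and 92.1 CPM, and in both drug groups all libraries lay below those of PAN. Col5a2 rose by 0.47 ± 0.14 in PAN (adjusted p 0.0270 in edgeR's test) and fell by 0.87 ± 0.14 with methylprednisolone (adjusted p 6.56e-04). It fell by 0.59 ± 0.14 with pioglitazone (adjusted p 0.0236). The rise did not pass without Sham library 1, 2 or 4 or without PAN library 2 or 4, nor when PAN and sham were fitted alone, with adjusted p of 0.00839 to 0.0864 over the alternatives. The fall with pioglitazone did not pass without PAN library 2 or PAN+Pio library 2 or 4.

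Col5a3, the least widespread collagen V chain, had few reads in sham and the largest fold rise of the 3. Its level was 0.660, 0.708, 0.671 and 0.702 CPM in sham, from 15 to 18 reads, and 4.54, 3.71, 2.24 and 1.60 CPM in PAN, from 42 to 113 reads. It was 0.507, 0.498, 0.919 and 0.373 CPM in PAN+MP and 0.872, 0.921, 0.978 and 0.681 CPM in PAN+Pio. All PAN libraries lay above all others, with PAN library 1 the highest. Col5a3 rose by 2.13 ± 0.33 in PAN (SE, n = 4, adjusted p 3.56e-04 in edgeR's test), a 4.38-fold rise. It fell by 2.38 ± 0.33 with methylprednisolone (adjusted p 1.65e-04) and by 1.80 ± 0.32 with pioglitazone (adjusted p 0.00587), and none of these calls was lost under the alternatives tried.

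Col1a1, the main chain of collagen I, the chief fibrillar collagen of scar, had the largest rise among the 30. Its level was 18.5, 10.2, 11.0 and 16.3 CPM in sham and 228, 83.2, 67.5 and 480.1 CPM in PAN. PAN library 4 was highest, and the lowest PAN library stood above the highest sham library. Col1a1 rose by 3.94 ± 0.60 on the log2 scale (SE, n = 4, adjusted p 3.33e-04 in edgeR's test) and by 3.15 without PAN library 4. Levels in the drug groups were 158, 77.6, 49.8 and 98.1 CPM in PAN+MP and 166, 75.8, 144 and 269.5 CPM in PAN+Pio. Both ranges overlapped PAN and lay entirely above sham.

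Col1a1 did not pass the test between either drug and PAN. The log2 difference was -1.16 ± 0.53 for methylprednisolone (95% interval -2.29 to -0.03, adjusted p 0.222 in edgeR's test) and -0.39 ± 0.53 for pioglitazone (95% interval -1.50 to 0.73, adjusted p 0.812). Both intervals include falls of over 2-fold, so a fall of that size may have gone undetected. Without PAN library 4 the pioglitazone difference turned to 0.39, and the methylprednisolone difference was -0.39. Against sham, Col1a1 was higher by 2.77 ± 0.57 in PAN+MP (adjusted p 0.00910) and by 3.55 ± 0.59 in PAN+Pio (adjusted p 0.00351).

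Col3a1, the chain of collagen III, which forms thin reticular fibrils with collagen I, was highest in other libraries than Col1a1. It stood at 2.64, 5.40, 5.18 and 4.79 CPM in sham and 15.3, 7.34, 19.5 and 5.30 CPM in PAN, highest in PAN library 3, where Col1a1 was lowest. PAN library 4 lay within the sham range. Col3a1 rose by 1.39 ± 0.38 (adjusted p 0.0183 in edgeR's test), but not without Sham library 1, PAN library 1 or PAN library 3, nor when PAN and sham were fitted alone, with adjusted p of 0.00215 to 0.0861 over the alternatives. In PAN+MP it stood at 4.78, 6.56, 7.86 and 8.98 CPM and in PAN+Pio at 7.64, 6.87, 5.09 and 12.3 CPM. The differences from PAN were -0.75 ± 0.37 (adjusted p 0.266) and -0.57 ± 0.37 (adjusted p 0.507), with 95% intervals of -1.53 to 0.03 and -1.35 to 0.21.

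The other 5 tested fibrillar genes did not pass in PAN against sham, PAN+MP against PAN or PAN+Pio against PAN. Col27a1, a short fibrillar collagen of cartilage and developing vessels, came nearest, with 85.4, 74.4, 61.8 and 69.5 CPM in PAN and 38.5, 51.4, 37.3 and 42.7 CPM in PAN+Pio. These libraries did not overlap, and the difference was -0.78 ± 0.22 (adjusted p 0.0624 in edgeR's test). It passed in DESeq2, without a filter on low counts and with these groups fitted alone. For Col2a1 and Col11a1, best known from cartilage, and Col11a2 and Col24a1, a minor fibril chain, the PAN against sham values were -0.32 ± 0.46, -0.18 ± 0.27, -0.66 ± 0.27 and 0.76 ± 0.37. Col11a2 passed as lower in PAN without Sham library 3 and without PAN library 4. Col24a1 passed as lower with methylprednisolone against PAN without PAN library 4. Col2a1 varied widely within PAN, at 1.85, 8.68, 19.5 and 9.11 CPM.

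**Figure D2:**
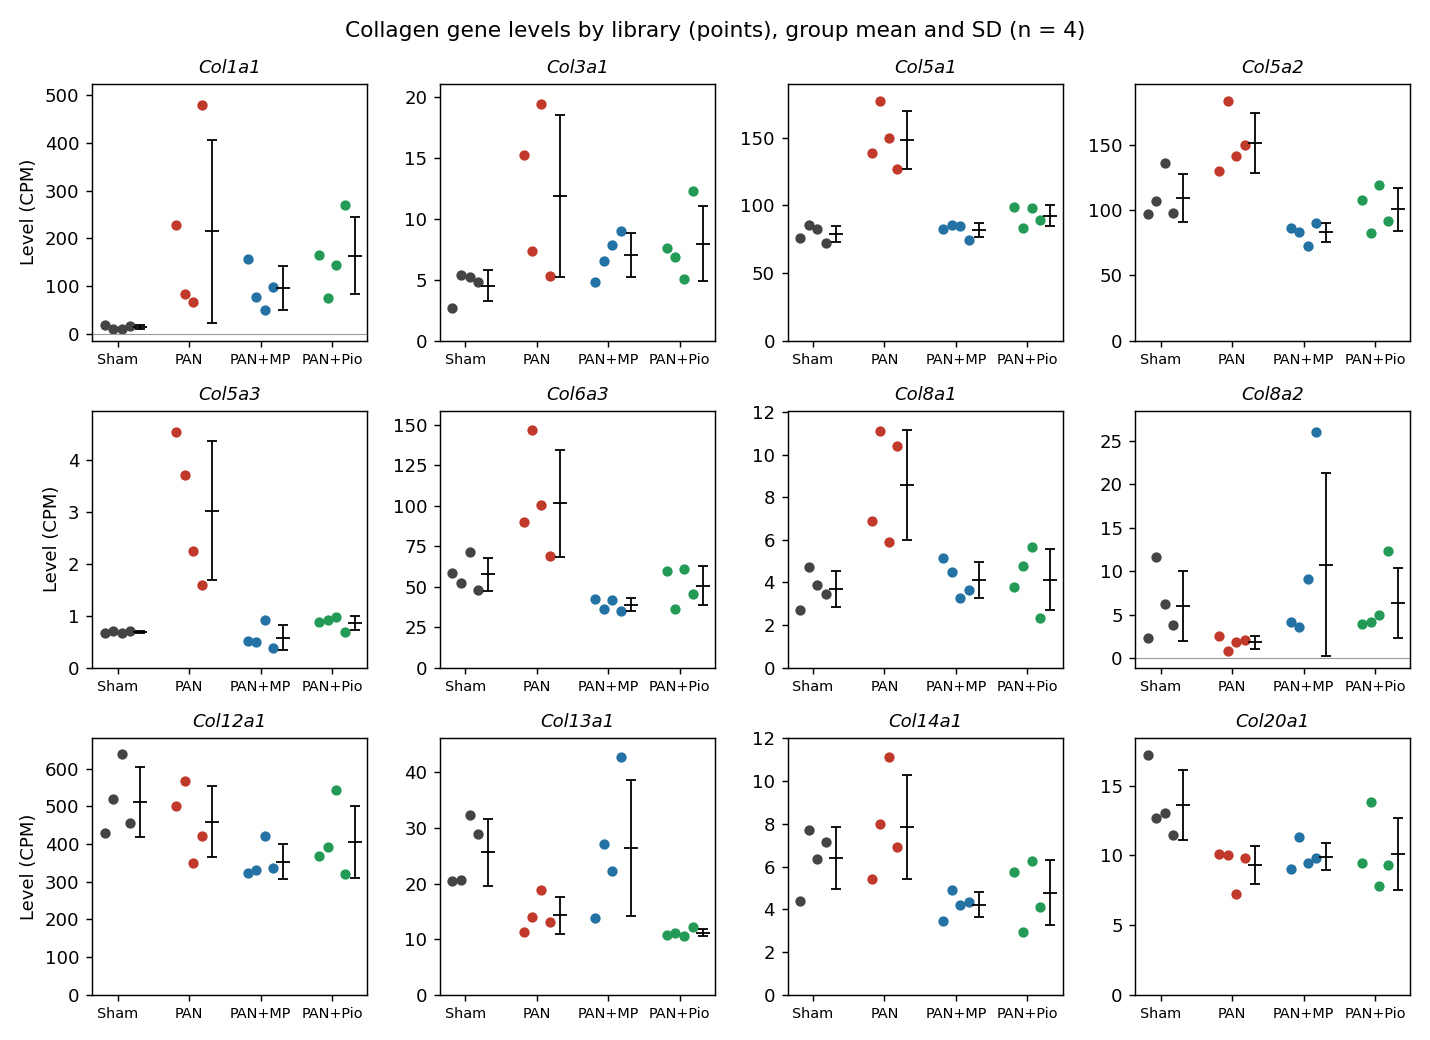
Levels in CPM (vertical, linear axis) of 12 collagen genes in each library (points) of the 4 groups (horizontal), with the group mean and SD (bars, n = 4). Col5a1 and Col5a3 are higher in each PAN library than in all libraries of the other groups, and Col1a1 is above sham in each library of the 3 PAN groups.

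Of the collagen VI chains, which build microfilaments around cells, Col6a3 rose and the other tested ones did not pass. Col6a3, the long chain that carries the endotrophin fragment at its end, stood at 58.8, 52.6, 71.3 and 47.8 CPM in sham and 90.1, 147, 101 and 68.9 CPM in PAN. Sham library 3 lay just above PAN library 4, the lowest of PAN. Its level was 42.4, 36.2, 42.0 and 35.0 CPM in PAN+MP, below all PAN and sham libraries, and 60.1, 36.2, 61.0 and 45.5 CPM in PAN+Pio, below all PAN libraries. Col6a3 rose by 0.82 ± 0.21 in PAN (SE, n = 4, adjusted p 0.0117 in edgeR's test). It fell by 1.39 ± 0.21 on the log2 scale, which is 2.61-fold, with methylprednisolone (adjusted p 4.21e-04 in edgeR's test). With pioglitazone it fell 2.01-fold (adjusted p 0.0128 in edgeR's test). The pioglitazone call was lost without PAN+Pio library 2, with an adjusted p of 0.0533.

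Col6a1 and Col6a2, the short partners that assemble with Col6a3, were closer to sham. Col6a1 stood at 6.64 ± 2.13 CPM in sham and 7.72 ± 2.82 CPM in PAN (SD, n = 4), a log2 difference of 0.22 ± 0.26 with a 95% interval of -0.33 to 0.76. Col6a2 stood at 16.3 ± 5.97 and 16.5 ± 3.55 CPM, a difference of 0.01 ± 0.27 with a 95% interval of -0.55 to 0.58. Col6a6, an alternative to Col6a3, and Col6a5 differed by 0.47 ± 0.28 and -0.09 ± 0.59, Col6a5 from 1 to 16 reads per library. Within single libraries, the count ratio of Col6a3 to Col6a2 was 5.15, 2.74, 3.05 and 4.20 in sham and 5.85, 8.76, 4.75 and 5.43 in PAN. It was 4.44, 3.17, 3.44 and 1.65 in PAN+MP and 3.94, 3.43, 4.10 and 3.37 in PAN+Pio, with all drug libraries below all PAN libraries.

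The collagen VIII chains, which form networks beneath endothelium and around smooth muscle, had their PAN levels on opposite sides, Col8a1 highest and Col8a2 lowest of the 4 group means. Col8a1 stood at 2.73, 4.73, 3.88 and 3.47 CPM in sham, 6.88, 11.1, 5.90 and 10.4 CPM in PAN, 5.15, 4.48, 3.27 and 3.64 CPM in PAN+MP and 3.78, 4.76, 5.67 and 2.35 CPM in PAN+Pio. All PAN libraries lay above all others. Col8a1 rose by 1.21 ± 0.27 in PAN (adjusted p 0.00566 in edgeR's test). It fell by 1.05 ± 0.27 with methylprednisolone (adjusted p 0.0210) and by 1.05 ± 0.27 with pioglitazone (adjusted p 0.0403). The first of these falls was lost without PAN library 2 or 4 or PAN+MP library 3 or 4. The second was lost without PAN library 2 or 4 or PAN+Pio library 1, 2 or 4, and with these groups fitted alone.

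Col8a2, the other chain of collagen VIII, stood at 2.38, 11.6, 6.22 and 3.86 CPM in sham and 2.57, 0.816, 1.83 and 2.06 CPM in PAN. Sham library 1 lay within the PAN range. The difference was -1.72 ± 0.66 (adjusted p 0.0768 in edgeR's test), and it passed in DESeq2. Under methylprednisolone the level was 4.13, 3.58, 9.16 and 26.1 CPM, highest in library 4, and under pioglitazone 3.90, 4.18, 5.01 and 12.3 CPM, and both groups lay above all PAN libraries. Col8a2 rose with methylprednisolone by 2.56 ± 0.66 (adjusted p 0.0224), and the call was lost without PAN library 2 or 3 or PAN+MP library 4, where the change was smallest at 1.64. The pioglitazone difference of 1.81 ± 0.65 did not pass (adjusted p 0.160).

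The count ratio of Col8a1 to Col8a2 in a library was 1.15, 0.408, 0.623 and 0.899 in sham and 2.67, 13.6, 3.23 and 5.06 in PAN. It was 1.25, 1.25, 0.356 and 0.139 in PAN+MP and 0.968, 1.14, 1.13 and 0.190 in PAN+Pio. The lowest PAN ratio lay above the highest of any other group. In collagen V, the ratio of Col5a3 to Col5a2 was 0.00678, 0.00658, 0.00492 and 0.00719 in sham and 0.0349, 0.0201, 0.0158 and 0.0107 in PAN. It was 0.00589, 0.00596, 0.0126 and 0.00414 in PAN+MP and 0.00806, 0.0111, 0.00817 and 0.00740 in PAN+Pio. All PAN ratios lay above sham, and 1 library of each drug group lay above the lowest PAN library. The ratio of Col5a1 to Col5a2 was 0.605 to 0.792 in sham, 0.846 to 1.06 in PAN and 0.818 to 1.01 in PAN+Pio, and it reached 1.16 in PAN+MP. Both drug groups overlapped PAN and lay above sham. These ratios were chosen after the levels were seen and were not tested, and they are not scaled by transcript length.

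**Figure D3:**
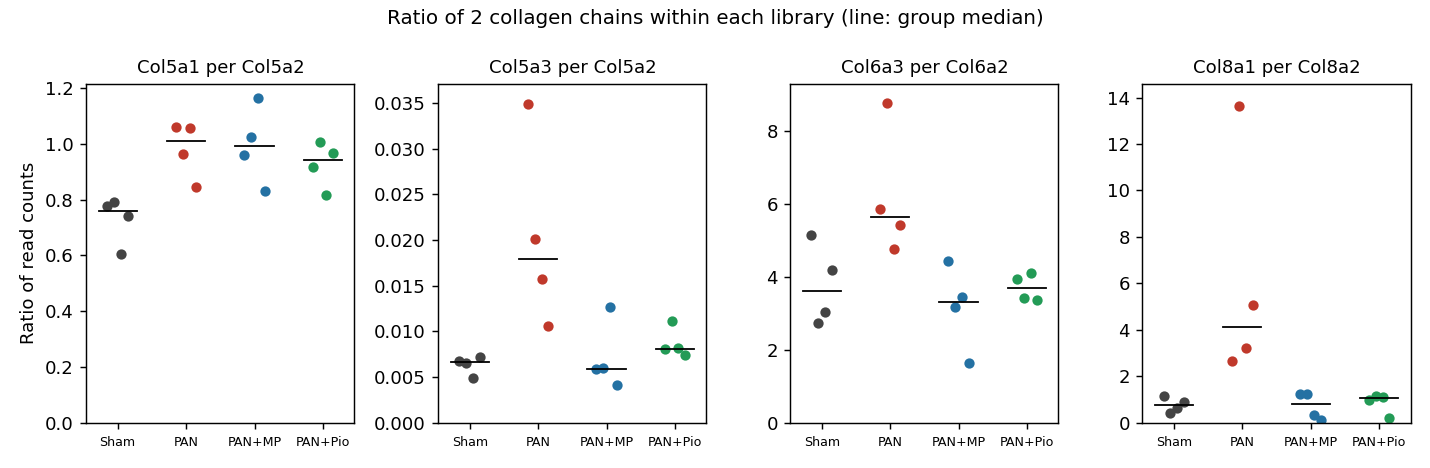
Ratio of the read counts of 2 collagen chains (vertical, linear axis from 0) in each library (points) of the 4 groups (horizontal), with the group median (line). The ratio of Col8a1 to Col8a2 is 2.67 to 13.6 in PAN and at most 1.25 elsewhere.

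Among the FACITs, 8 were tested and 1 passed in PAN against sham. Col20a1, a FACIT of sparse known function, stood at 17.2, 12.6, 13.0 and 11.5 CPM in sham and 10.1, 10.0, 7.24 and 9.83 CPM in PAN, without overlap. It fell by 0.55 ± 0.17 (adjusted p 0.0391 in edgeR's test), and the call was lost without Sham library 1 or PAN library 1, 3 or 4, without a filter on low counts and with these groups fitted alone. In the drug groups it stood at 9.91 ± 0.969 and 10.1 ± 2.58 CPM (SD, n = 4). Col14a1, which binds collagen fibrils and limits their growth, stood at 4.40, 7.70, 6.34 and 7.13 CPM in sham, 5.43, 7.97, 11.1 and 6.90 CPM in PAN and 3.44, 4.88, 4.18 and 4.35 CPM in PAN+MP. It fell with methylprednisolone by 0.90 ± 0.25 (adjusted p 0.0362), and the call was lost without PAN library 2 or 3 or any PAN+MP library. The pioglitazone difference was -0.72 ± 0.25 (adjusted p 0.146).

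Col12a1, a large FACIT of tension-bearing tissue, had 8446 to 17137 reads per library. It stood at 429.6, 519, 639 and 457 CPM in sham, 502, 566, 349 and 421 CPM in PAN, 323, 332, 422 and 337 CPM in PAN+MP and 369, 393, 542 and 319.7 CPM in PAN+Pio, with overlapping ranges of PAN and each other group. The PAN against sham difference was -0.15 ± 0.18 with a 95% interval of -0.53 to 0.22. All PAN+MP libraries lay below all sham libraries, and that difference was -0.53 ± 0.18 (adjusted p 0.0581 in edgeR's test). It passed in DESeq2 and when these groups were fitted alone. For Col9a1, Col9a2, Col16a1, Col19a1 and Col22a1 the PAN against sham values ran from -0.84 for Col22a1 to 0.38 for Col9a1, and none passed under either drug against PAN.

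Of the membrane collagens, Col13a1, found at cell adhesions, differed between the drugs. Its level was 20.5, 20.7, 32.4 and 28.9 CPM in sham, 11.3, 13.9, 18.9 and 13.1 CPM in PAN, 13.7, 27.1, 22.2 and 42.8 CPM in PAN+MP and 10.8, 11.1, 10.6 and 12.2 CPM in PAN+Pio. The PAN and PAN+Pio libraries lay below all sham libraries, and 3 of the 4 PAN+MP libraries lay above all PAN libraries. Col13a1 fell in PAN by 0.84 ± 0.26 (adjusted p 0.0362 in edgeR's test) and rose with methylprednisolone against PAN by 0.89 ± 0.26 (adjusted p 0.0469). With pioglitazone the difference from PAN was -0.36 ± 0.27 (adjusted p 0.588), and the level was lower than sham by 1.20 ± 0.27 (adjusted p 0.0196).

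In the direct test Col13a1 was lower in PAN+Pio than in PAN+MP by 1.24 ± 0.27 (adjusted p 0.0435 in edgeR's test). All PAN+Pio libraries lay below all PAN+MP libraries. That call was lost without PAN+MP library 2, 3 or 4 or any one of the PAN+Pio libraries, and with the 2 groups fitted alone. The other calls of Col13a1 also depended on single libraries, and adjusted p over the alternatives was 0.0121 to 0.0945 in PAN against sham, 0.00632 to 0.162 for methylprednisolone and 4.96e-04 to 0.0618 for pioglitazone against sham. Col17a1, a hemidesmosome collagen of epithelia, had a PAN against sham difference of -0.03 ± 0.18 with a 95% interval of -0.41 to 0.35.

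The multiplexin Col18a1, the source of endostatin in basement membranes, had 3257 to 7679 reads per library. It stood at 229, 339.6, 137 and 236 CPM in sham and 131, 171, 196 and 195 CPM in PAN. Sham library 3 lay within the PAN range, and the other 3 sham libraries lay above it. The difference of -0.44 ± 0.20 did not pass (adjusted p 0.129 in edgeR's test), but did without Sham library 3, with an adjusted p of 0.0106 and a difference of -0.65. Levels with methylprednisolone and pioglitazone were 234, 200.1, 204 and 235 CPM and 216, 219, 266 and 203 CPM, above all PAN libraries, with differences of 0.33 ± 0.20 and 0.38 ± 0.20 that did not pass. Col7a1 of the anchoring fibrils and Col26a1 differed between PAN and sham by 0.23 ± 0.35 and -0.32 ± 0.45 and did not pass.

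With methylprednisolone, 8 of the 30 tested collagens passed against PAN, 6 lower and 2 higher, beside 8.62% of all tested genes, 5.31% lower and 3.31% higher. Libraries did not overlap for 6 collagens lower and for 2 higher (Col8a2 and Col18a1), beside 8.62% of all tested genes lower and 7.15% higher. The lower ones were Col5a1, Col5a2, Col5a3, Col6a3, Col8a1 and Col14a1, and the higher ones were Col8a2 and Col13a1. The median over the collagens was -0.03, and over all tested genes it was near 0. The count was 4 without PAN library 2 or PAN+MP library 4 and 5 without PAN+MP library 3. Without PAN library 2 the 4 remaining calls were all lower.

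With pioglitazone, 5 of 30 passed against PAN, all lower, beside 3.68% of all tested genes, with 2.85% lower and 0.832% higher. Libraries did not overlap for 6 collagens lower, the 5 and Col27a1, and for 2 higher (Col8a2 and Col18a1), beside 6.42% and 4.27% of all tested genes. The median over the collagens was -0.19, and over all tested genes it was near 0. No collagen passed higher in edgeR's test, 1 was higher at an unadjusted p under 0.05, and none passed higher in DESeq2. The 5 were Col5a1, Col5a2, Col5a3, Col6a3 and Col8a1, and their fold changes were smaller than or level with those under methylprednisolone. None of these differences between the drugs passed, with log2 values (PAN+Pio minus PAN+MP) of 0.17 ± 0.10, 0.28 ± 0.14, 0.58 ± 0.34, 0.38 ± 0.21 and 0.00 ± 0.27. The pioglitazone count was 3 without PAN library 2 or PAN+Pio library 4 and 2 without PAN+Pio library 2.

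**Figure D4:**
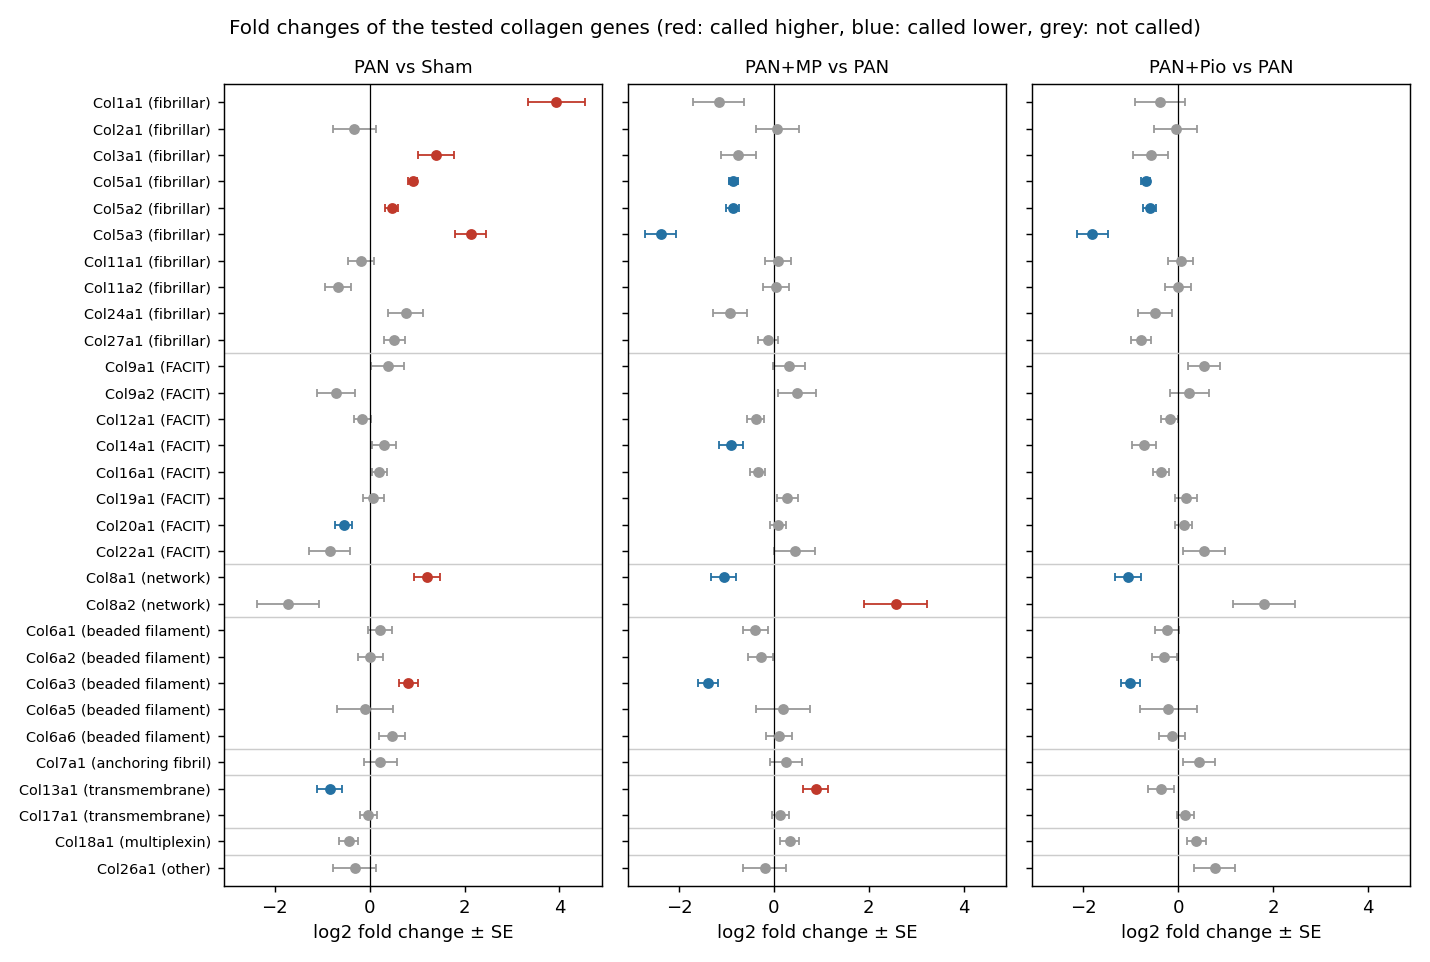
Log2 fold change with its SE (horizontal) of the 30 tested collagen genes (vertical, by class) in PAN against sham, PAN+MP against PAN and PAN+Pio against PAN, with called genes in red (higher) or blue (lower). Col1a1 has the largest rise in PAN (3.94) and is grey in both drug comparisons, whereas the 3 collagen V chains are red in the first panel and blue in the others.

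Against sham, few collagens passed in the treated groups. Col1a1 alone was called in PAN+MP, 1 of 30 beside 12.7% of all tested genes (5.98% higher, 6.72% lower). In PAN+Pio, Col1a1 was called higher and Col13a1 lower, 2 of 30 beside 5.08% (3% higher, 2.09% lower). Libraries did not overlap with sham for 1 collagen higher and 4 lower in PAN+MP, beside 10.6% and 9.95% of all tested genes, and for 1 higher and 1 lower in PAN+Pio, beside 7.23% and 6%. DESeq2 called 4 in PAN+MP, adding Col12a1, Col5a2 and Col6a3 as lower. For the 5 genes that both drugs lowered, the log2 values against sham in PAN+MP were 0.05 ± 0.10 for Col5a1, -0.40 ± 0.14 for Col5a2, -0.25 ± 0.35 for Col5a3, -0.57 ± 0.21 for Col6a3 and 0.16 ± 0.27 for Col8a1. In PAN+Pio they were 0.23 ± 0.10, -0.13 ± 0.14, 0.33 ± 0.34, -0.18 ± 0.21 and 0.16 ± 0.27. Between the drugs only Col13a1 passed, 1 of 30 beside 0.633% of all tested genes (0.428% higher, 0.205% lower), and it was the 1 collagen whose libraries did not overlap, lower as in 3.39% of all tested genes.

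Genes that build, cut and link collagen were followed beside the chains. Their counts are read against the shares of all tested genes called, 18.9% in PAN against sham (10.4% higher, 8.52% lower), 8.62% with methylprednisolone and 3.68% with pioglitazone, and against an all-gene median near 0 in each comparison. Of 14 tested genes of chain modification and folding, 4 rose in PAN in edgeR's test and 0 fell, 1 being lower at an unadjusted p under 0.05. The median of their log2 fold changes was 0.23, beside 0.01 for all tested genes. P4hb, a subunit of prolyl hydroxylase, rose by 0.50 ± 0.11, Colgalt1, which adds galactose to hydroxylysine, by 0.31 ± 0.08, and Fkbp14, a folding enzyme, by 0.54 ± 0.16. Leaving out Sham library 1 or PAN library 3 gave 1 call in place of 4. With methylprednisolone, Serpinh1, the collagen chaperone HSP47, fell by 0.53 ± 0.14 and Plod2, which makes hydroxylysine for crosslinks, rose by 0.64 ± 0.16. Both calls depended on single libraries, and the count of this list was 0 or 1 without PAN library 1, 2, 3 or 4 or PAN+MP library 2, 3 or 4. With pioglitazone edgeR called none and DESeq2 called 1, and 5 had an unadjusted p under 0.05.

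Of 15 tested genes of procollagen processing and fibril assembly, 4 rose in PAN and 1 fell, beside 18.9% of all tested genes called, with a median of 0.27. Adamts14 and Adamts3, which both remove the amino-terminal propeptide of procollagens, went opposite ways, 4.78 ± 0.33 and -1.32 ± 0.16 (adjusted p 9.90e-07 and 5.74e-05 in edgeR's test). Adamts14 fell with methylprednisolone by 2.96 ± 0.29 and with pioglitazone by 2.01 ± 0.28, and Adamts3 rose by 1.05 ± 0.16 and 0.63 ± 0.16. Pcolce, which enhances removal of the carboxy-terminal propeptide, rose in PAN by 0.73 ± 0.21. The PAN count of this list was 2 without Sham library 1 or PAN library 1 or 3, and 3 without Sham library 3 or 4. With methylprednisolone 3 fell and 1 rose, beside 8.62% of all tested genes called, and with pioglitazone 2 fell and 1 rose, beside 3.68%. The methylprednisolone count was 2 without PAN library 2 and 2 without any one of the PAN+MP libraries, and the pioglitazone count was 1 without PAN library 2 or PAN+Pio library 3 or 4.

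Of the 7 crosslinking genes, 2 rose in PAN, with a median of 0.32, and DESeq2 called 4, as did edgeR without Sham library 4. Loxl2, a lysyl oxidase, rose by 1.47 ± 0.22 and Loxl1 by 0.52 ± 0.11. Both fell with each drug, Loxl2 by 1.40 ± 0.22 and 1.30 ± 0.22 and Loxl1 by 0.53 ± 0.11 and 0.76 ± 0.11 for methylprednisolone and pioglitazone. Of 12 tested genes of collagen degradation, 6 rose, with a median of 0.49. Timp2, a metalloproteinase inhibitor, rose by 1.26 ± 0.12, and the cathepsins Ctsl and Ctsk rose by 0.94 ± 0.15 and 0.79 ± 0.14. With methylprednisolone 4 of the 12 fell and with pioglitazone 4, including Mmp2, the gelatinase A, by 1.28 ± 0.15 and 0.81 ± 0.15, and Mmp14, its activator, by 0.58 ± 0.12 and 0.53 ± 0.12. The pioglitazone count was 1 without PAN library 2 or PAN+Pio library 2 or 4, and 2 without PAN library 1 or 3 or PAN+Pio library 1. Of 11 tested receptor genes, Itgb1, the shared integrin chain, rose by 0.55 ± 0.12 and Cd36 by 0.80 ± 0.22 in PAN. These 2 of 11 are a share near the 18.9% of all tested genes and no result about the receptors. Ddr1, a collagen receptor kinase, rose with methylprednisolone by 0.76 ± 0.18, and Cd36 fell with pioglitazone by 1.04 ± 0.22, though not without PAN+Pio library 2 or 4. In PAN 1 receptor was called when either Sham library 1 or PAN library 1 was left out.

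Markers of cells that can make or carry these transcripts moved with some groups. Beside the marker counts that follow, 18.9% of all tested genes were called in PAN against sham (10.4% higher, 8.52% lower), 8.62% with methylprednisolone and 3.68% with pioglitazone. Of 10 fibroblast and perivascular markers, 8 were in the table and 6 were tested, of which Scara5 and Dcn were called higher in PAN, and the count was 1 without any one sham library or PAN library 1 or 3 and 4 without PAN library 2. Dcn is also in the list of processing and assembly. Their summed level was 429.8 to 785 CPM in sham, 431 to 679 in PAN, 395 to 418 in PAN+MP and 395 to 453 in PAN+Pio. Among defining markers, Pdgfra stood at 5.37 to 11.5 CPM in sham and 4.86 to 23.6 in PAN. The median log2 fold change of the 6 tested fibroblast and perivascular markers was 0.99 in PAN against sham. There 3 had an unadjusted p under 0.05 in edgeR's test, and 0 of those were lower. Against PAN their median was -0.43 with methylprednisolone and -0.12 with pioglitazone. Of 7 tested mesangial markers 2 rose and 1 fell in PAN, and 3 fell with each drug, with summed levels of 2039.7 to 2915 CPM in sham, 2425 to 3698 in PAN, 1810.3 to 2063 in PAN+MP and 1956 to 2604 in PAN+Pio. Of 6 tested macrophage markers 2 rose in PAN and 3 fell with each drug, with summed levels of 77.2 to 111 CPM in sham, 134 to 181 in PAN, 50.3 to 112 in PAN+MP and 62.8 to 96.1 in PAN+Pio. In PAN 0 macrophage markers were called when Sham library 1 or PAN library 2 was left out, and 1 when Sham library 2 or 4 was. With methylprednisolone the count was 0 without PAN library 2 or PAN+MP library 3 and 1 without PAN library 1 or PAN+MP library 2. With pioglitazone it was 0 without PAN library 1 or PAN+Pio library 2 and 1 without PAN library 2 or PAN+Pio library 3 or 4. No marker in the table was at 0 in all libraries. The part of these cells in the collagen results was not tested.

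PAN library 2, with the highest mesangial and fibroblast sums in PAN and the lowest tubule sum, also had the highest PAN level of some tested collagens. These were Col5a1, Col5a2, Col6a3, Col8a1 and Col12a1, of which Col12a1 was not called in PAN against sham. The same library was lowest in PAN for Col6a5, Col6a6, Col7a1, Col8a2, Col9a1 and Col22a1. Sham library 3 had the highest mesangial and fibroblast sums in sham and the lowest tubule sum. Its levels of Col5a2, Col6a1, Col6a2, Col6a3, Col12a1 and Col13a1 were the highest in sham. Those of other collagens, among them Col2a1, Col11a1, Col18a1 and Col27a1, were the lowest in sham. Pdgfrb is in both the mesangial and the fibroblast list, so these sums are not independent. Col1a1 was highest in PAN library 4 and Col5a3 in PAN library 1. Without PAN library 2, all 7 risen genes but Col5a2 were still called higher in PAN, and the call of Col13a1 as lower was lost. In the same fit Col8a1, Col8a2, Col13a1 and Col14a1 lost their calls with methylprednisolone against PAN. Col5a2 and Col8a1 lost theirs with pioglitazone. In the other marker lists edgeR called 0 of 12 tubule markers in PAN against sham and DESeq2 called 1, with 3 at an unadjusted p under 0.05, and edgeR called 8 without PAN library 2. Of 8 podocyte markers 1 rose and 4 fell, of 8 endothelial markers 5 fell, and of 8 parietal epithelial markers 1 rose and 1 fell. Those calls fell to 2 podocyte markers without Sham library 1 or 2 or PAN library 3, 2 endothelial markers without Sham library 1 or PAN library 3, and 0 parietal markers without Sham library 4 or PAN library 1 or 3.

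In the authors' deposited table, 6 of the 30 tested collagens had an adjusted p under 0.05 for PAN and sham, 7 for PAN and PAN+MP and 5 for PAN and PAN+Pio. The present test called 5, 7 and 4 of them, with no change of direction, and a further 4, 1 and 1 that the table did not. The table's adjusted p for PAN and sham was 0.0511 for Col5a2, 0.0508 for Col6a3 and 0.0516 for Col20a1. For PAN and PAN+Pio it was 0.0763 for Col8a1. Of the 5 genes that rose in PAN and fell with both drugs, only Col5a1 and Col5a3 passed there in all 3 comparisons. The table alone called Col8a2 for PAN and sham (adjusted p 0.0295) and Col27a1 for PAN and PAN+Pio (adjusted p 0.0222). Against sham the table called 1 for PAN+MP and 2 for PAN+Pio, all called here. Between the drugs the table called 0 of the 30, where the present test called Col13a1. In the authors' deposited table, the adjusted p of Col13a1 was 0.0914 between the drugs, 0.106 for PAN and sham and 0.15 for PAN and PAN+MP, so 3 of its 4 calls here are not in that table.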

How the data were processed

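RNA of isolated glomeruli from 16 samples, with ribosomal and globin transcripts removed, was sequenced in strand-specific libraries. Per the submitters' processing notes, the tools were cutadapt, STAR, HTSeq 0.6.1p1 and DESeq2 with build Rnor_6.0, with no role, counting strand or annotation release named in the sources used here. The deposited values are raw read counts per gene, per the file headers. A further 16 columns of per-sample values, normalized by the authors, were not used, nor was the authors' normalized signal averaged per group. The authors' log2 fold changes and adjusted p-values served only to count shared calls.

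Columns were assigned to groups by name and carry no replicate numbers, and those of the PAN group carry the word high, whose meaning is not given. Nothing besides the stated number of rats says how replicates were taken, and p-values set a group difference against the spread between these samples. Replicate pairs differed by at least 10.8 times the variance of counting alone. Counts were fitted in R 4.3.3 with edgeR 4.0.16 (filterByExpr, minimum count 10, leaving 17061 genes; TMM factors 0.952 to 1.05; glmQLFit with 12 residual degrees of freedom; glmQLFTest), and p-values were adjusted by Benjamini-Hochberg over all tested genes. Standard errors are the change over the square root of F. CPM uses TMM-adjusted library sizes. On simulated data with 17061 genes, the fit recovered 69% of genes changed by 1 on the log2 scale and 93% of those changed by 2 in PAN against sham. The corresponding shares were 62% and 92% for PAN+MP and 67% and 92% for PAN+Pio against PAN. Each simulation changed 100 genes by each size. The real comparison of PAN and sham called 3231 genes, so these shares need not hold for the real data. Alternatives were other scaling, filters, DESeq2 1.42.0, pairwise fits and left-out libraries. Every member is accounted for, with full statistics for those called in PAN against sham or in either drug group against PAN and for a short fixed list. From each related list the 3 called genes with the smallest p in PAN against sham are named, with some called under a drug. Members and lists were chosen with earlier results of these data known, and the classes follow textbook use.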

Additional observations from a re-analysis of the deposited data

Results flagged for a closer look

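In 6 of 124 gene-by-group sets of 4 libraries, 4.84%, 1 library stood apart from the other 3 by Dixon's gap criterion, and chance alone marks about 1 in 20 such sets. Col8a2 was 12.3 CPM in PAN+Pio library 4, against at most 5.01 in the other 3. Col11a2 was 3.85 CPM in PAN library 4, against at most 2.11. Col12a1 was 422 CPM in PAN+MP library 3, against at most 337. Col20a1 was 7.24 CPM in PAN library 3, against at least 9.83. Among genes with few reads, Col25a1 was 0.396 CPM in Sham library 1 and Col26a1 was 0.435 CPM in PAN+MP library 4.

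The effects of the drugs against PAN differed for Col13a1, by -1.24 on the log2 scale (PAN+Pio minus PAN+MP, adjusted p 0.0435 in edgeR's test). The call was lost under 9 of the 14 alternatives tried, which had adjusted p of 8.70e-04 to 0.152. In the authors' deposited table that difference had an adjusted p of 0.0914. In 3 of 4 PAN+MP libraries it lay above all PAN libraries, and in 4 of 4 PAN+Pio libraries below all PAN+MP libraries.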

How the results depend on the processing

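No paired analysis was possible because the count columns carry no replicate numbers. Under RLE scaling and with the filter of 10 counts in at least 4 libraries, the called collagens were the same as in the report in all 6 comparisons. Without a filter, Col20a1 was lost in PAN against sham and Col27a1 gained in PAN+Pio against PAN. In PAN+MP against sham, DESeq2 called 4 and the fit of these groups alone 3, against 1 in the report. In PAN+Pio against PAN+MP, the fit of these groups alone called 0 collagens by edgeR, with 3 at an unadjusted p under 0.05 in the full fit and 1 in DESeq2. Without the 2 libraries whose names carry an extra tag, the call of Col13a1 was lost in 3 comparisons. The counts were then 7 in PAN+MP against PAN, 1 in PAN+Pio against sham and 0 in PAN+Pio against PAN+MP. Leaving out single libraries gave 6 to 10 called collagens in PAN against sham, 4 to 7 in PAN+MP against PAN, 2 to 5 in PAN+Pio against PAN, 1 to 3 in PAN+MP against sham, 1 to 3 in PAN+Pio against sham and 0 to 1 between the drugs. The lower counts have fewer samples by construction. Col1a1 in PAN+Pio against PAN turned from -0.39 to 0.39 without PAN library 4, with values of -0.74 to 0.39 as single libraries were left out, and none passed. Depth limits Col5a3, Col6a5, Col7a1, Col9a2, Col22a1, Col24a1 and Col26a1, which had under 20 reads in some libraries.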
